A study of Mus musculus with 24 samples.

Results

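The genes described here were 7 genes of the MHC class II pathway: H2-Aa, H2-Ab1, H2-Eb1, H2-DMa, H2-DMb1, Cd74 and Ciita. They were taken by name from the deposited count table, as 7 of its 55426 rows, and the choice used none of their values. All 7 passed the filter on low counts and were among the 18046 genes tested, although Ciita and H2-Eb1 passed it mainly through the libraries of day 0, in which they were high.

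Type II alveolar epithelial cells (AEC2s, the surfactant-producing cells of the alveolus) came from Krt8+/+ mice (WT) and from Krt8-/- mice (KO), which lack keratin 8 in the whole animal. RNA was taken from fresh cells (day 0) and from cells kept in 2D culture for 1, 3 or 7 days, during which alveolar epithelial cells (AECs) lose AEC2 markers. Each of the 8 groups of genotype and day held 3 libraries, labelled as biological replicates of 3 batches, and each batch had 1 library in every group. The sources used here give neither the strain nor the age of the mice. In batch 1, Y-linked transcripts averaged 178 CPM (counts scaled to a common library size after TMM normalisation) in the KO libraries and 0.142 CPM in the WT libraries, and Xist averaged 8.80 and 72.3 CPM, so the genotypes differed in sex-linked transcripts there.

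MHC class II molecules are cell surface heterodimers that show peptides from the endosome to CD4+ T cells. Professional antigen-presenting cells carry them in large amounts, and AEC2s are known among epithelial cells for carrying them without inflammation. The α and β chains (H2-Aa and H2-Ab1 for I-A, H2-Eb1 for the β chain of I-E) assemble with the invariant chain, Cd74, which blocks the groove. The H2-DM heterodimer (H2-DMa and H2-DMb1) later exchanges the remnant of the invariant chain for peptide. Ciita, the class II transactivator, binds no DNA itself and is recruited by factors that sit on the X and Y boxes of these promoters.

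In GRCm38, 5 of the genes lay in the MHC on chromosome 17. H2-DMa spanned 34119541 to 34139101 and H2-DMb1 34153072 to 34160230, both on the plus strand. H2-Ab1 spanned 34257689 to 34269419 (plus), H2-Aa 34282744 to 34287823 (minus) and H2-Eb1 34305867 to 34316674 (plus). Ciita lay on chromosome 16 from 10480059 to 10528418 on the plus strand, and Cd74 lay outside the MHC on another chromosome. The GENCODE model of H2-Ab1 starts 5538 bases before the RefSeq start, and where along the model its reads fell was not examined. H2-DMb1 has a close neighbour copy, H2-DMb2: 22.7% of the 50-base words in its transcripts also occur in those of H2-DMb2, so reads can be split between them. H2-Eb1, H2-DMa and Ciita overlap genes on the opposite strand. Whether the counting used strand is not stated in these sources.

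RefSeq promoter windows (GRCm38.p6, 250 bases before to 50 after the start) were matched for H2-Aa, H2-Eb1, H2-DMa and H2-DMb1, 4 of the 7 genes. They were searched on both strands for the X box core, AGNNACNGATG, and the Y box, CCAAT, which cannot overlap each other. Of 32851 windows of this length, 0.968% held the X box core, 37.4% the Y box and 0.387% both. By these exact patterns, H2-Eb1 and H2-DMb1 held both, and H2-Aa matched the Y box only. Of the 2 windows of H2-DMa, 1 matched the Y box and the other neither. Variants of the patterns were not searched, so a window without a match can still hold a box. The stretches that carry the matches are shown because these genes were called lower in culture, though by unequal amounts. They are written 5′ to 3′ on the gene's own strand, with matches in capitals (ATTGG is the Y box read on the other strand). They are chr17:34305767-34305844 (plus), chr17:34287859-34287913 (minus) and chr17:34153088-34153114 (plus, the X box core alone).
H2-Eb1: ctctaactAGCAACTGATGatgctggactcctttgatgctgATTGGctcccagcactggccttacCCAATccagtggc
H2-Aa: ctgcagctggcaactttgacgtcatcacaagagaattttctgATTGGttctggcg
H2-DMb1: gtttacctAGTAACTGATGatgctagg
The first base of the Y box followed that of the X box core by 33 bases in H2-Eb1 and by 34 bases in H2-DMb1. These matches are descriptions of sequence, and binding was not measured.

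The 24 libraries held between 10184439 and 19483386 counts. Krt8 was between 485 and 5092 CPM in the WT libraries and between 21.2 and 47.4 CPM in the KO libraries, as the labels say. The summed level of 10 AEC2 markers was between 266458 and 356768 CPM on day 0 and between 224 and 3205 CPM on day 7. The 2 libraries of batch 2 on day 1 stood apart: the AEC2 sum was 19620 CPM (WT) and 18324 CPM (KO) there, against 80485 to 108790 CPM in the other 4 libraries of day 1. In these bulk samples, fewer cells expressing a gene and less RNA per cell cannot be told apart.

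All 7 genes fell in culture, in both genotypes, by day 1, and 5 of them fell further by day 3 in WT cells. On day 7 a median of 0.141% of the starting level of H2-Aa remained, whereas that of H2-Ab1, Cd74 and the H2-DM genes was between 2.47% and 5.34%. Ciita was lost early and was close to or at 0 on day 7. No member differed between WT and KO cells on any day by the test used.

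H2-Aa, the α chain of I-A, was at 404, 558 and 660 CPM in the WT libraries of day 0 (batches 1, 2 and 3). It was at 185, 37.9 and 192 CPM on day 1, at 1.44, 2.33 and 4.71 CPM on day 3, and at 0.885, 0.498 and 0.729 CPM on day 7. No 2 days overlapped. In KO cells it was at 535, 573 and 782 CPM on day 0, at 196, 33.9 and 172 CPM on day 1, at 1.92, 3.56 and 2.82 CPM on day 3, and at 0.915, 1.17 and 0.574 CPM on day 7, and here too no days overlapped. The low library on day 1 was that of batch 2 in both genotypes. Relative to day 0 of the same batch, a median of 25.5% of H2-Aa remained on day 1, 0.389% on day 3 and 0.141% on day 7 (n = 6 libraries each, both genotypes). The 3 WT libraries of day 7 held 30 counts of H2-Aa in all, against 17467 on day 0.

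H2-Ab1, the β chain that pairs with it, fell by day 1 and again by day 3. In WT cells it was at 492, 659 and 818 CPM on day 0, at 259, 48.6 and 252 CPM on day 1, at 13.2, 11.1 and 19.7 CPM on day 3, and at 17.7, 18.6 and 17.5 CPM on day 7. In KO cells it was at 639, 689 and 937 CPM on day 0, at 296, 61.6 and 265 CPM on day 1, at 14.5, 18.1 and 17.3 CPM on day 3, and at 18.8, 24.4 and 13.8 CPM on day 7. Days 3 and 7 overlapped in both genotypes and lay below every library of day 1. The median share of the day 0 level that remained was 29.6% on day 1, 2.34% on day 3 and 2.88% on day 7.

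H2-Eb1, the β chain of I-E, was far lower than the I-A chains. In WT cells it was at 4.83, 7.04 and 9.30 CPM on day 0 and at 1.84, 0.585 and 0.951 CPM on day 1. By day 7 it rested on 1, 8 and 3 counts in the WT libraries and on 6, 5 and 7 in the KO libraries. Days 1, 3 and 7 overlapped one another but not day 0, and at this depth an order among the later days was not detectable.

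The subunits of H2-DM, which loads peptide, both fell by day 1. H2-DMa was at 63.4, 93.3 and 90.3 CPM in WT cells on day 0, at 25.4, 4.85 and 22.1 CPM on day 1, at 2.56, 1.17 and 3.63 CPM on day 3 and at 5.72, 4.56 and 3.51 CPM on day 7. H2-DMb1 was at 51.8, 56.2 and 65.0 CPM on day 0, at 16.1, 2.26 and 11.7 CPM on day 1, at 4.07, 1.88 and 4.37 CPM on day 3 and at 4.08, 4.23 and 2.78 CPM on day 7. For both subunits the libraries of day 0 lay above all others, and days 3 and 7 overlapped in WT cells. The share of day 0 that remained on day 7 had a median of 5.17% for H2-DMa and 5.34% for H2-DMb1. The neighbour H2-DMb2, whose reads can be confused with those of H2-DMb1, went from a mean of 48.2 CPM on day 0 to 1.98 CPM on day 7 in WT cells.

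Cd74, the invariant chain (chromosome 18, 60803848 to 60812652, plus strand), was the most abundant member throughout. It was at 4116, 5190 and 5763 CPM in WT cells on day 0, at 2205, 506 and 2114 CPM on day 1, at 86.4, 114 and 169 CPM on day 3 and at 110.0, 118 and 155 CPM on day 7. In KO cells it was at 5106, 5453 and 6293 CPM on day 0 and at 109, 180 and 126 CPM on day 7. The libraries of days 3 and 7 overlapped in both genotypes and lay below those of day 1, like those of H2-Ab1. A median of 2.50% remained on day 3 and 2.47% on day 7.

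Ciita, the transactivator, was at 32.4, 22.3 and 28.3 CPM in WT cells on day 0 and at 4.48, 0.418 and 0.475 CPM on day 1. It was at 0.328, 0.324 and 0.340 CPM on day 3, and on day 7 only the library of batch 3 held any counts, 5 in all. In KO cells it was at 32.0, 22.5 and 26.3 CPM on day 0, at 6.55, 0.195 and 0.934 CPM on day 1 and at 0.0686, 0.422 and 0.563 CPM on day 3, and none of the 3 libraries of day 7 held a count. The libraries of batch 1 were the high ones on day 1 in both genotypes. Over the group, the 5 counts in WT cells on day 7 correspond to a level 239-fold below day 0 (95% exact Poisson interval 102 to 739), and the absence of counts in KO cells to one at least 421-fold lower, with 3 counts over the group taken as the floor. Both figures cover counting error only.

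**Figure D1:**
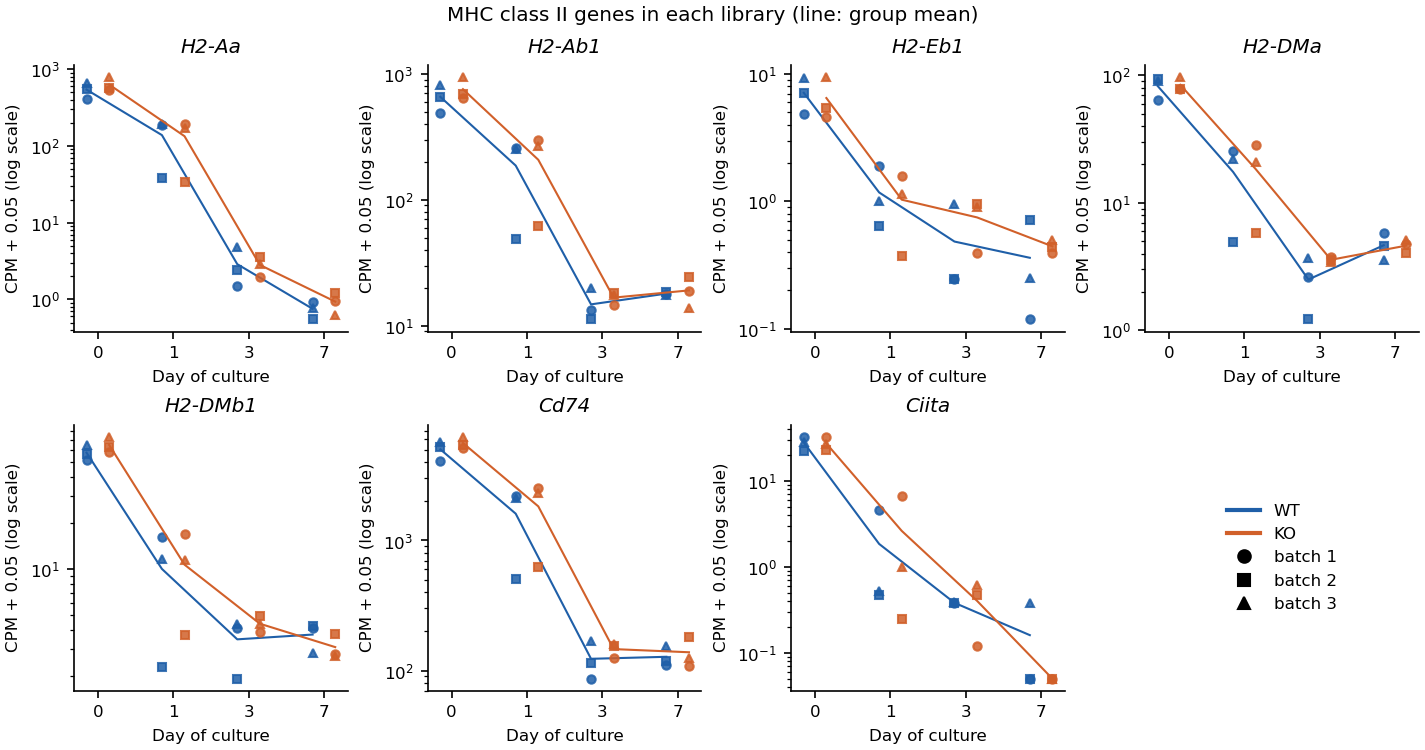
Level of each of the 7 genes in every library (y axis, CPM + 0.05, log scale) by day of culture (x axis), with WT and KO set slightly apart, 1 marker shape per batch and a line through the group means. All libraries of day 0 lie above those of later days, H2-Aa is at 1.17 CPM or less on day 7 while H2-Ab1 stays between 13.8 and 24.4 CPM, and the libraries of batch 2 are the lowest of day 1 for all 7 genes in both genotypes.

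Tested against day 0 with edgeR's quasi-likelihood test, 7 of 7 members were lower in WT cells on day 1, where 28.5% of all genes tested were called lower at an adjusted p under 0.05. The same held on day 3 (background 27.8%) and on day 7 (background 30.2%), and in KO cells on day 1 (26.9%), day 3 (26.6%) and day 7 (29.9%). These counts include Ciita and H2-Eb1, which passed the filter mainly through day 0, so a call as lower was favoured for them in advance. In WT cells the log2 fold change of H2-Aa was -1.97 (SE 0.52, adjusted p = 0.0034) on day 1, -7.56 (SE 0.69, adjusted p = 2.05e-08) on day 3 and -9.55 (SE 0.79, adjusted p = 3.29e-09) on day 7. On day 7 it was -5.19 (SE 0.57) for H2-Ab1, -5.30 (SE 0.53) for Cd74, -4.52 (SE 0.73) for H2-Eb1, -4.16 (SE 0.53) for H2-DMa and -3.96 (SE 0.53) for H2-DMb1. The corresponding KO values were -9.48 for H2-Aa, -5.31 for H2-Ab1, -5.35 for Cd74, -4.00 for H2-Eb1, -4.20 for H2-DMa and -4.41 for H2-DMb1. Ciita was called lower on each day, and since its day 7 counts were at or near 0, its level there is given only by the counts above. The members were lower than on day 0 in 3 of 3 batches in every one of these comparisons.

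The size of the fall on day 1 depended on batch 2. Over the 7 members and both genotypes, the log2 fold changes of day 1 ran from -3.94 to -1.62 with all libraries, with a largest adjusted p of 0.0051, and from -3.56 to -1.12 without batch 2, with a largest adjusted p of 0.041. In batch 2, 5.92% and 6.80% of H2-Aa remained on day 1, against 22.0% to 45.8% in batches 1 and 3. For Cd74 the shares were 9.75% and 11.5% in batch 2, against 36.7% to 53.6%. Sftpc, the surfactant protein C gene, was at 12171 CPM (WT) and 11437 CPM (KO) in the same 2 libraries, against 48249 to 66037 CPM in the other 4. The part of the AEC2 marker level in these differences was not tested.

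Between day 1 and day 3, 5 of 7 members were called lower in WT cells (background 11.9%) and 4 of 7 in KO cells (background 10.2%). The 4 called in both were H2-Aa, H2-Ab1, H2-DMa and Cd74, with log2 fold changes in WT cells of -5.59 (SE 0.64), -3.66 (SE 0.53), -2.82 (SE 0.53) and -3.71 (SE 0.49). H2-DMb1 was called in WT cells only, at -1.54 (SE 0.50, adjusted p = 0.027), which missed the threshold without batch 1 (adjusted p = 0.23) or batch 3 (adjusted p = 0.17). In KO cells its value was -1.28 (adjusted p = 0.067, and 0.0012 without batch 2), and that of H2-DMa, -2.37, missed the threshold without batch 1 (adjusted p = 0.089) or batch 3 (adjusted p = 0.072). H2-Eb1 and Ciita did not pass in either genotype, with adjusted p = 0.16 and 0.10 in WT cells.

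Between day 3 and day 7, edgeR called 0 of 7 members lower in WT cells (background 3.47%) and 0 of 7 in KO cells (background 6.15%). At an unadjusted p under 0.05, H2-Aa was lower in WT cells, at -1.99 (SE 0.79, adjusted p = 0.15), and H2-Aa and Ciita in KO cells, with -1.66 (SE 0.76, adjusted p = 0.19) for H2-Aa. H2-Aa was lower on day 7 in 3 of 3 batches of each genotype, and the groups did not overlap. DESeq2 called H2-Aa in WT cells (adjusted p = 0.029) and Ciita, which had no counts on day 7, in KO cells. The other members were not called by either tool, with values of 0.28 for H2-Ab1, 0.05 for Cd74, 0.89 for H2-DMa and 0.10 for H2-DMb1 in WT cells. In KO cells H2-DMa was at 0.38, higher in 3 of 3 batches, and H2-DMb1 at -0.52, lower in 3 of 3, each without overlap, and H2-Ab1 and Cd74 were at 0.19 and -0.08.

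**Figure D2:**
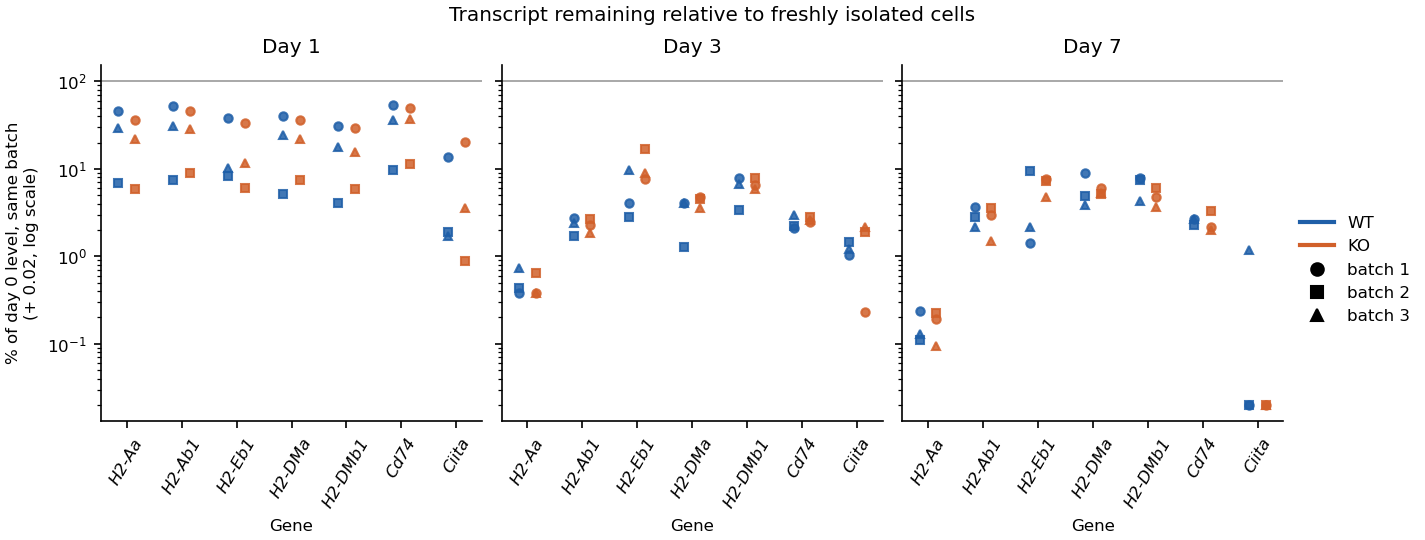
Share of each gene's day 0 level that remained on days 1, 3 and 7 (y axis, percent of the CPM in day 0 cells of the same genotype and batch, + 0.02, log scale), with 1 point per library. H2-Aa, at 0.0734% to 0.219% on day 7, lies below the 5 other genes with counts in all libraries, and the points at the bottom of day 7 are the 5 libraries without a count of Ciita.

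Since both partners of a pair were counted in the same library, the ratio between them needs no scaling across libraries, and 5 ratios were compared between each day and day 0 over both genotypes (6 libraries against 6, exact 2-sided permutation test, 15 tests adjusted by Benjamini-Hochberg, smallest possible p = 0.0022). The log2 ratio of H2-Aa to H2-Ab1 was nearly constant on day 0, at -0.31 to -0.24, and it moved to between -0.86 and -0.36 on day 1, between -3.17 and -2.06 on day 3 and between -5.11 and -4.27 on day 7. No 2 days overlapped. The mean difference from day 0 was -0.28 on day 1, -2.28 on day 3 and -4.24 on day 7, all at the smallest exact p (adjusted p = 0.0041). On day 7 it was between -4.36 and -4.13 in the 2 genotypes taken alone. With the 6 pairs of genotype and batch as a replicate block, the smallest exact p is 0.0312, and after adjustment the 9 differences of this family at an adjusted p of 0.011 or less, these 3 included, had an adjusted p of 0.0521, so none passed the threshold. Both tests count the WT and KO libraries of a batch separately, although there were only 3 batches. With 3 libraries against 3, the smallest possible p of the exact permutation test is 0.1.

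The ratio of Cd74 to H2-Ab1 stayed within a narrow range. It was between 2.75 and 3.07 on day 0 and between 2.53 and 3.18 on day 7, and the means differed by -0.09 (exact permutation p = 0.45, adjusted p = 0.49). On day 1 it was higher by 0.25 (adjusted p = 0.0041), with no overlap with day 0. On day 3 the difference was 0.16 (adjusted p = 0.17), and without batch 1 it was 0.30 (adjusted p = 0.043). On day 7 it was -0.33 without batch 3 (adjusted p = 0.043) and 0.09 without batch 1 (adjusted p = 0.55), all by the exact permutation test.

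Ciita fell further than H2-Ab1 by day 1. The log2 ratio of Ciita to H2-Ab1 was between -5.15 and -3.92 on day 0 and between -8.95 and -5.49 on day 1, a mean difference of -2.52 (exact permutation p = 0.0022, adjusted p = 0.0041). In batch 1, 13.8% (WT) and 20.4% (KO) of Ciita remained on day 1, beside 52.7% and 46.3% of H2-Ab1. In batch 3, 1.68% and 3.56% of Ciita remained, beside 30.9% and 28.3% of H2-Ab1. On day 3, after H2-Ab1 had fallen in turn, the difference was -0.87 (adjusted p = 0.029) and the days overlapped. It was -0.27 without batch 1 (adjusted p = 0.26) and -1.18 without batch 2 (adjusted p = 0.078), and its adjusted p was 0.117 with the replicate block. On day 7 it was -3.80 (adjusted p = 0.0041), a value that includes 5 libraries without a count of Ciita and so depends on the 0.5 added to each count.

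The ratio of H2-DMa to H2-DMb1 was higher by 0.38 on day 1 (exact permutation p = 0.0065, adjusted p = 0.011), lower by 0.85 on day 3 (difference -0.85, adjusted p = 0.0041) and back at its starting mean on day 7 (difference 0.01, adjusted p = 0.96). The 6 libraries of day 3, at -0.67 to -0.05, all lay below those of day 0, at 0.29 to 0.73. The difference of day 1 missed the threshold without batch 1 (adjusted p = 0.078) and without batch 3 (adjusted p = 0.12). The ratio of H2-Eb1 to H2-Ab1 was lower by 0.64 on day 1 (difference -0.64, adjusted p = 0.062), higher by 1.78 on day 3 (adjusted p = 0.0041) and higher by 0.94 on day 7 (adjusted p = 0.070), and rested on few counts of H2-Eb1. The value of day 7 was 1.24 without batch 1 (adjusted p = 0.043).

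**Figure D3:**
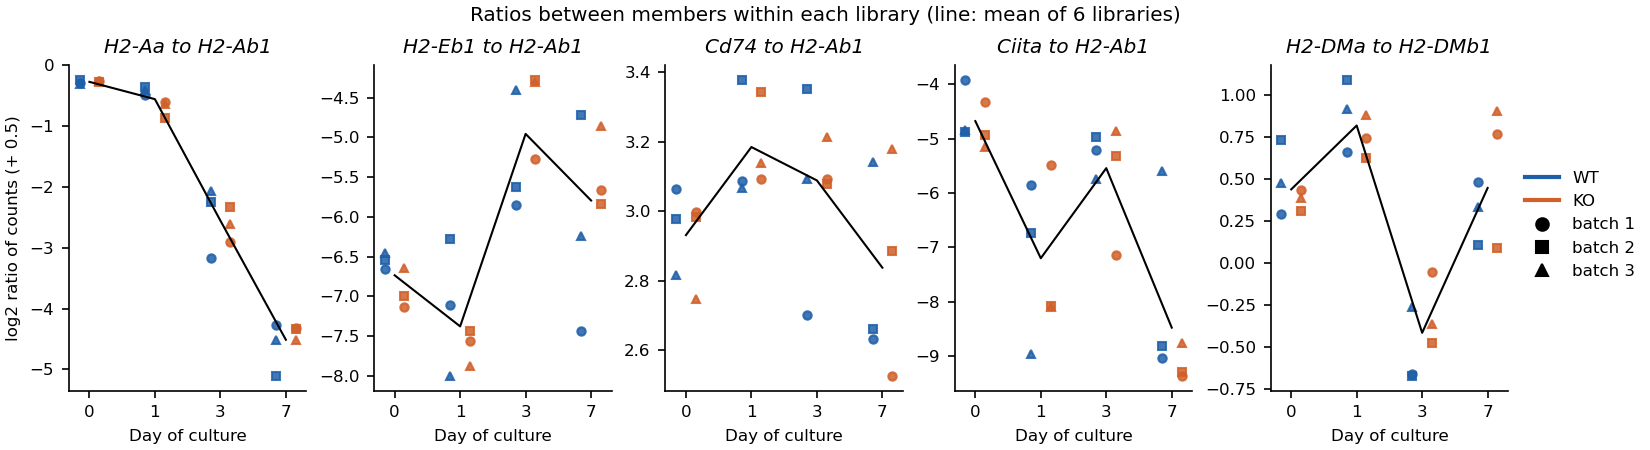
Log2 ratio of the counts of 2 members in the same library (y axis, 0.5 added to each count) by day of culture (x axis), with 1 point per library and a line through the mean of the 6 libraries of a day. H2-Aa falls against H2-Ab1 from a mean of -0.27 on day 0 to -4.51 on day 7, whereas Cd74 to H2-Ab1 goes from 2.93 to 2.84.

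Levels of different genes were compared per length, as CPM per kilobase of annotated exon. In all 24 libraries Cd74 was first and H2-Ab1 second in this order. H2-Aa was the third in all libraries of days 0 and 1, with a median of 149 CPM per kilobase on day 0 beside 262 for H2-Ab1 and 3169 for Cd74. Over the 6 libraries of day 0 its range, 106 to 206, overlapped that of H2-Ab1, 191 to 365, and neither met that of Cd74. On day 7 its place had dropped to the fifth or sixth, with a median of 0.212 beside 7.06 for H2-Ab1, 1.94 for H2-DMb1 and 1.34 for H2-DMa. H2-Eb1 and Ciita held the last 2 places on day 0, with overlapping ranges of 2.33 to 4.81 and 2.34 to 3.401, and on days 1 and 3 Ciita was last in every library. On day 7 the ranges of H2-Aa (0.131 to 0.308) and H2-Eb1 (0.0350 to 0.341) overlapped.

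Loss of Krt8 was not accompanied by a called difference in any member. With edgeR, 0 of 7 were called between KO and WT cells on day 0, where 0.0277% of all genes were called in either direction, and 0 of 7 on day 1 (0.0166%), day 3 (0.0166%) and day 7 (0.0166%). In the test of whether the course over days differed between genotypes, 0 of 7 were called (background 0.00554%), with unadjusted p from the edgeR fit between 0.573 and 0.998. No member reached an unadjusted p under 0.05 in any of these comparisons, and DESeq2 called 0 of 7 in each.

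The intervals of the KO minus WT differences were wide. Over the 6 members other than Ciita, the log2 differences on day 0 ran from -0.13 to 0.22, and their 95% intervals together from -1.36 to 1.27. On day 7 they ran from -0.28 to 0.39, with intervals from -1.65 to 2.23. For Ciita the difference was -0.04 on day 0 (interval -1.69 to 1.61) and 0.47 on day 1 (interval -1.41 to 2.34). On day 3 it was 0.09 (interval -2.51 to 2.68), and on day 7 the counts of Ciita were too few to compare the genotypes. Within batches, H2-Ab1 on day 0 was higher in KO cells by 0.38, 0.06 and 0.20 on the log2 scale, 3 of 3 batches, a mean of 0.21 ± 0.16 (SD). H2-Aa was higher by 0.40, 0.04 and 0.24 on the same day, a mean of 0.23 ± 0.18 (SD). H2-DMb1 and Cd74 were also higher in 3 of 3, by means of 0.17 ± 0.010 and 0.17 ± 0.13. H2-DMa was higher in 2 of 3 (mean 0.045 ± 0.29), and H2-Eb1 (mean -0.16 ± 0.21) and Ciita (mean -0.039 ± 0.063) in 1 of 3. For H2-Aa, H2-Ab1 and Cd74 the largest of these differences was in batch 1, in which sex-linked transcripts differed between the genotypes, and their part in it was not tested.

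Antigen-presenting leukocytes are the usual source of class II transcripts, so their markers are given beside the members. The sum of 7 pan-leukocyte markers was between 1.00 and 44.6 CPM on day 0, with 2 of the 7 at 0 in both libraries of batch 3, and between 7.62 and 176 CPM on day 7. The part of leukocytes in the levels of the members was not tested. On day 0 the libraries of batch 3 had the lowest leukocyte sums, 1.33 CPM (WT) and 1.00 CPM (KO), and the highest H2-Ab1 of their genotype, 818 and 937 CPM. On day 7 the sums of the WT libraries were 176, 57.8 and 7.62 CPM, while H2-Ab1 was at 17.7, 18.6 and 17.5 CPM in the same libraries.

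Some marker sums of other cells fell with the members. Those of 4 club and ciliated cell markers went from between 4192 and 17053 CPM on day 0 to between 14.2 and 33.7 CPM on day 7, and those of 4 endothelial markers from between 12.3 and 29.6 CPM to between 0.858 and 3.83 CPM. On day 0 the club and ciliated sums were 4192, 9728 and 5060 CPM in WT cells (batches 1, 2 and 3). In KO cells they were 11938, 11803 and 17053 CPM, above every WT library. The part of this in the KO minus WT differences of the members was not tested. The sum of 6 B cell markers went from between 17.0 and 62.5 CPM on day 0 to between 0 and 0.400 CPM on day 7. In batch 3 on day 0, 3 of the 6 markers were at 0 in each genotype. The library with the highest sum, KO batch 1, had 639 CPM of H2-Ab1, less than the 937 CPM of KO batch 3, whose sum was 17.6 CPM. The sum of 7 dendritic cell markers was between 11.7 and 24.03 CPM on day 0 and between 6.00 and 37.6 CPM on day 7. In batch 3 on day 0, 5 (WT) and 6 (KO) of these 7, Flt3 and Xcr1 included, were at 0, and the rest was almost all Zbtb46. The sum of 9 macrophage markers was between 8.27 and 129 CPM on day 0 and between 4.77 and 150.3 CPM on day 7. The part of these cells in the levels of the members was not tested.

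**Figure D4:**
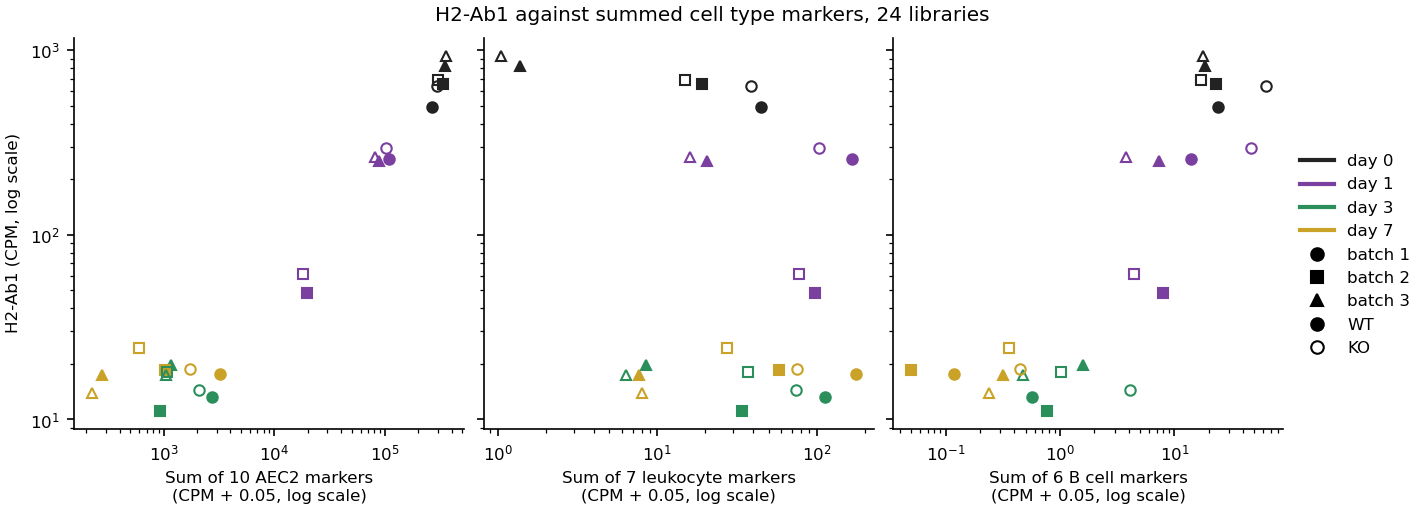
H2-Ab1 (y axis, CPM, log scale) against the summed level of 10 AEC2, 7 leukocyte or 6 B cell markers (x axes, CPM + 0.05, log scale) in the 24 libraries, coloured by day, with filled symbols for WT and open symbols for KO. On day 0 the 2 libraries with the lowest leukocyte sums, at 1.00 and 1.33 CPM, have the highest H2-Ab1, and the 2 libraries of batch 2 on day 1 have both low AEC2 sums and low H2-Ab1.

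By Pearson correlation over all 24 libraries with the mean log2 CPM of H2-Aa, H2-Ab1, H2-Eb1 and Cd74, among 13213 genes ranked, the first was Napsa, an aspartic protease of lamellar bodies (r = 0.993). It was followed by Sftpd, surfactant protein D (r = 0.991), Gm43085 (r = 0.990), Ang (r = 0.989) and Lamp3, a lamellar body membrane protein (r = 0.988), and then by Pon1, Pgs1, Cst8, Gstt1 and Epas1 (each r = 0.987). Ciita had r = 0.923 and Ptprc, the pan-leukocyte gene CD45, r = -0.23. These values are descriptions over libraries that share their days and batches. For deviations from the group means, in which days no longer count, Tmem59 (r = 0.947), Napsa (r = 0.943) and Elf5 (r = 0.938) came first, Sftpc had r = 0.817, Ciita r = 0.626 and Ptprc r = -0.35. The shared low values of batch 2 on day 1 enter these correlations.

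Among the other genes of the pathway, as among all genes tested, some were called higher and some lower. In WT cells, genes called higher than on day 0 made up 26.2% of all genes tested on day 1, 26.1% on day 3 and 28.6% on day 7. Genes called lower made up 28.5% on day 1, 27.8% on day 3 and 30.2% on day 7. These shares are the background for the counts that follow. Of 5 other class II loci only H2-DMb2 and H2-Ea-ps, the I-E α chain locus annotated as a pseudogene, were abundant enough to be tested, and both were called lower on day 7. H2-DMb2 changed by -4.60 on the log2 scale (SE 0.62). H2-Ea-ps went from 201 counts in WT cells on day 0 to 0 on day 7, at least 82.5-fold lower against the same floor. It passed the filter on low counts through libraries of days 0 and 1, so a call as lower was favoured for it in advance.

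The DNA-bound factors that recruit Ciita changed by little over 1 on the log2 scale at most. Of 7 genes of this complex (RFX and NF-Y subunits and Creb1), 0 were called higher and 4 lower on day 7 in WT cells, with a median log2 fold change of -0.35, beside a median of 0 over all genes tested. On day 1, 2 were called higher and 2 lower, and on day 3, 0 and 2. The 4 of day 7 were Rfx5 (-1.20), Rfxap (-0.56), Nfyc (-0.48) and Creb1 (-0.35). In KO cells the corresponding values were -0.42 for Rfx5 and -0.17 for Creb1, neither of which passed the test, and -0.71 for Rfxap and -0.46 for Nfyc, which did.

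Of 10 genes on the route from interferon γ to Ciita, 1 was called higher and 5 lower in WT cells on day 7 (median -0.63), after 2 and 5 on day 1 and 1 and 6 on day 3. Among the 5 were Prdm1, a repressor of Ciita, at -3.59 (SE 0.76), Irf2 at -1.78 (SE 0.14), Irf1 at -1.59 (SE 0.21) and the kinase Jak2 at -0.81 (SE 0.21). Ifngr2, a receptor subunit, rose by 1.46 (SE 0.13). Irf1, which acts on an interferon-inducible Ciita promoter, was at a mean of 77.5 CPM on day 0 and 25.8 CPM on day 7.

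Of 8 genes that process antigen or the invariant chain, 2 were called higher and 2 lower in WT cells on day 7 (median 0.22), after 2 and 3 on each of days 1 and 3. Ctsl and Ctsd, endosomal proteases, rose by 2.46 (SE 0.13) and 2.39 (SE 0.26). Ctsh, an AEC2 protease, and Ifi30, the thiol reductase GILT, changed by -2.35 (SE 0.18) and -1.25 (SE 0.22). Ctss, which cleaves the invariant chain in professional antigen-presenting cells, was at 2.31 (SE 1.43, adjusted p = 0.17 by edgeR).

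Of 8 genes of class II turnover and costimulation, 3 were called higher and 1 lower in WT cells on day 7 (median 0.70), after 3 and 2 on day 1 and 3 and 1 on day 3. Cd80 and Cd40, costimulatory molecules, rose from means of 0.0793 and 0.652 CPM to 3.44 and 17.3 CPM, log2 fold changes of 5.18 (SE 0.84) and 4.49 (SE 0.81). Cd80 passed the filter through libraries of later days, so a call as higher was favoured for it in advance. The pan-leukocyte sums of the WT libraries also rose, from 44.6, 19.2 and 1.33 CPM on day 0 to 176, 57.8 and 7.62 CPM on day 7. The part of leukocytes in the values of these genes was not tested. Cd274, the inhibitory ligand PD-L1, rose by 2.45 (SE 0.78), and Icosl, a costimulatory ligand, changed by -2.43 (SE 0.69). Cd74 is also a receptor at the cell surface, and of 4 genes tested of the 5 listed for that role, 2 were called higher and 1 lower (median -0.11). Its ligand Mif rose by 1.96 (SE 0.26) and its signalling partner Cd44 by 1.12 (SE 0.16), while Ddt, a relative of Mif, changed by -2.24 (SE 0.19).

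**Figure D5:**
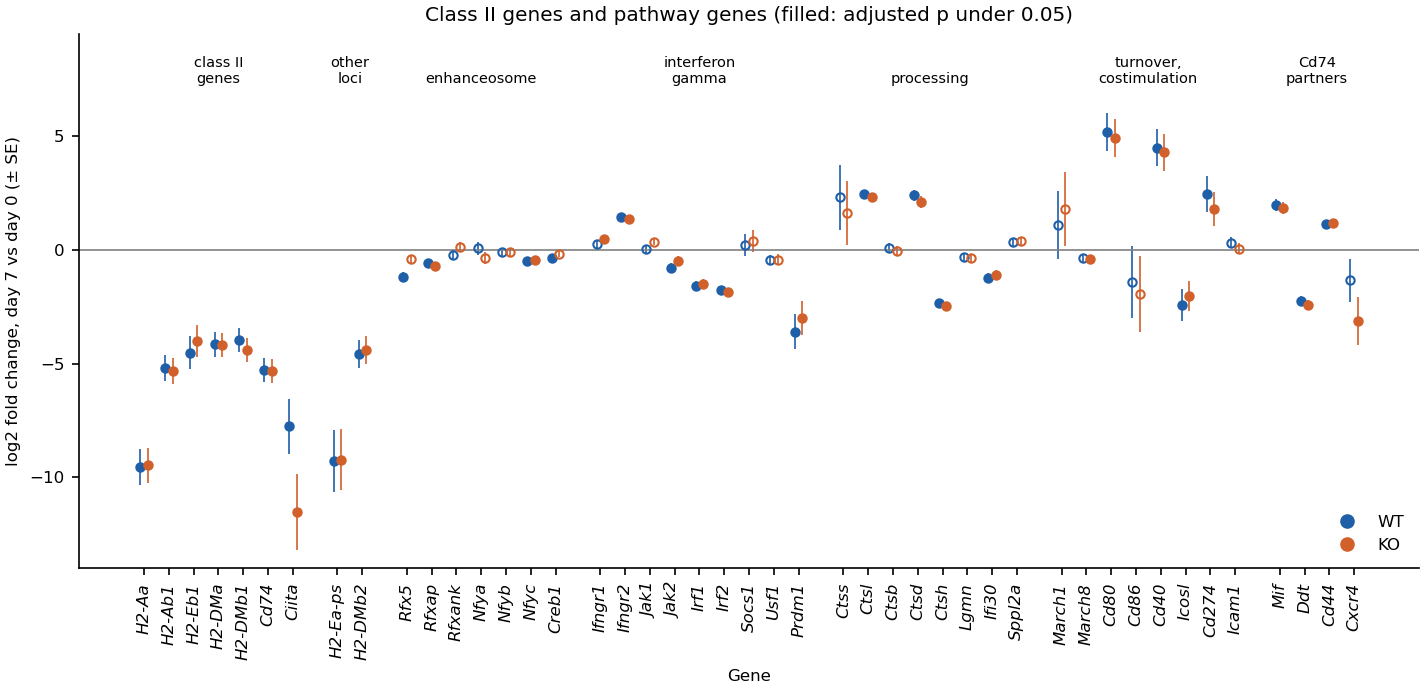
Log2 fold change between day 7 and day 0 (y axis, ± SE from the edgeR fit) for the 7 genes and the pathway genes tested other than 1 of the interferon γ route, grouped by list, with WT and KO side by side and filled symbols for an adjusted p under 0.05. The class II genes lie between -3.96 and -9.55 in WT cells, against -1.20 to 0.06 for the enhanceosome genes; the values of Ciita and H2-Ea-ps rest on groups with few or no counts and are not bounds.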

How the data were processed

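RNA-seq of bulk AECs was analysed in 24 libraries, 3 in each of the 8 combinations of genotype and day. The values the authors deposited were raw counts per Ensembl gene. The submitters' processing notes name cutadapt 2.3, STAR 2.7.8a, RSEM 1.3.3 and the GRCm38 build, so the whole numbers may be rounded RSEM estimates, and how such a program shares reads between H2-DMb1 and H2-DMb2 can move both. Library totals ran from 10184439 to 19483386 counts. Intervals and floors from counts cover counting error only. Deposited reporter rows held 0 counts, 267 IDs had no symbol (at most 0.0644% of a library), and 0 columns of the table were left unused.

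CPM were computed on library totals multiplied by the TMM factors, which were 0.746 to 0.808 in the WT libraries of day 0, so that CPM there are higher than on totals alone. Genes passing filterByExpr (minimum count 10, minimum total 15) were fitted in edgeR 4.0.16 (R 4.3.3, limma 3.58.1) with TMM normalisation and quasi-likelihood tests over all 8 groups (16 residual degrees of freedom). All adjusted p-values are Benjamini-Hochberg values over the 18046 genes, with 0.05 as the threshold, except those of the 15 ratios, which come from exact permutation tests (Python 3.11.15, scipy 1.17.1). Alternatives were DESeq2 1.42.0, other scalings, no filter, only the groups compared, each batch left out, a replicate block and a prior count of 2 for ratios; the analysis of day 1 without batch 2 was chosen after seeing the data. The edgeR fit was tested on simulated data.

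The named genes were the 7 members, the listed pathway genes that passed the test, and the 10 genes most like the members by correlation (log2 CPM with a prior count of 2, highest group mean of at least 5 CPM), of which some are given. Genes high on day 0 alone could therefore be ranked. The values of 1 pathway gene and 1 marker gene are not reported here, although list counts, medians and sums include them. Ctss, and the markers named singly, were chosen after their values were seen. The members and lists were chosen with earlier results of these data known. The labels give each library a batch and a biological replicate number, and each number goes with 1 batch. The correlation of same-numbered deviations in the groups compared ran from -0.0345 to 0.548, and 11 of 42 were under 0.1. Samples of 1 batch were taken as paired, because the labels give them that batch, in the replicate block, the shares of day 0 and the differences within batches. The main edgeR fit and the main permutation test of the ratios did not use the pairing. The edgeR p-values rest on the spread within all 8 groups, not only within the groups compared (16 residual degrees of freedom). Those of the permutation test rest on the libraries of the days compared.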

Additional observations from a re-analysis of the deposited data

How the results depend on the processing

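With the replicate block, the number of members called was the same in all 15 edgeR comparisons. The paired exact test gave an adjusted p of 0.0521 for 9 ratio differences, namely H2-Aa to H2-Ab1 on days 1, 3 and 7 (-0.28, -2.28, -4.24), H2-Eb1 to H2-Ab1 on day 3 (1.78), Cd74 to H2-Ab1 on day 1 (0.25), Ciita to H2-Ab1 on days 1 and 7 (-2.52, -3.80) and H2-DMa to H2-DMb1 on days 1 and 3 (0.38, -0.85), and of 0.117 for Ciita to H2-Ab1 on day 3 (-0.87). Its smallest exact p of 0.0312 limits it. The replicate block also turned KO minus WT to -0.012 for H2-DMa on day 0 and to 0.056 for H2-Aa on day 3. Between days 7 and 3, DESeq2 called 1 member in WT cells (H2-Aa) and 1 in KO cells (Ciita), and the fit of only the groups compared called 1 in KO cells (H2-Aa, adjusted p = 0.043). That fit did not call H2-DMb1 between days 3 and 1 in WT cells (adjusted p = 0.14). In KO cells DESeq2 and no filter added H2-DMb1 and Ciita there. Under library totals alone, the log2 change between days 7 and 3 in WT cells was -0.068 for H2-DMb1 and -0.11 for Cd74. That scaling moved the median of all genes by 0.43 to 0.60 against day 0, and the share of WT calls that were lower from 52.1% to 30.2% on day 1, from 51.6% to 25.3% on day 3 and from 51.4% to 33.7% on day 7. A prior count of 2 gave 1.35 for H2-Eb1 to H2-Ab1 on day 7 (adjusted p = 0.0072), -0.47 for Ciita to H2-Ab1 on day 3 (adjusted p = 0.20) and -0.0019 for H2-DMa to H2-DMb1 on day 7, by the exact test. The cause of these changes was not tested.

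With 1 batch left out, KO minus WT for H2-DMa lay between -0.078 and 0.18 (day 0), -0.031 and 0.15 (day 1), and -0.25 and 0.17 (day 7). For H2-Aa the limits were -0.16 and 0.037 (day 1), -0.42 and 0.54 (day 3), and -0.11 and 0.54 (day 7). They were -0.072 and 0.42 (day 3) and -0.11 and 0.25 (day 7) for H2-Ab1, with ranges from -0.061 to 0.56 on day 3 for H2-DMb1, from -0.35 to 0.55 on day 3 for Ciita and from -0.18 to 0.34 on day 7 for Cd74. Between days 7 and 3 it gave -0.052 to 0.18 for Cd74, -0.31 to 0.48 for H2-DMb1 and -2.01 to 0.81 for H2-Eb1 in WT cells, and -0.29 to 0.058 for Cd74 in KO cells. Between days 3 and 1, H2-Eb1 in KO cells ran from -1.15 to 0.33. Ratio differences ran from 0.051 to 0.30 (day 3) and -0.33 to 0.086 (day 7) for Cd74 to H2-Ab1, from -1.18 to -0.27 (day 3) for Ciita to H2-Ab1, from 0.67 to 1.24 (day 7) for H2-Eb1 to H2-Ab1, and from 0.34 to 0.40 (day 1) and -0.12 to 0.22 (day 7) for H2-DMa to H2-DMb1. Few counts limit H2-Eb1, Ciita and, on day 7, H2-Aa.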

Other observations

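On day 0, Cd79b held 232 of 377, 174 of 214 and 163 of 167 counts of the B cell marker sum in the WT libraries (batches 1, 2 and 3), and 265 of 868, 137 of 168 and 208 of 228 in the KO libraries. It was under a majority of the sum in KO batch 1, the library with the highest sum. Summed markers of fibroblasts were between 169 and 675 CPM on day 0 and between 787 and 2965 CPM on day 7, and those of T and NK cells were at most 3.53 CPM in any library.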
